A study of Mus musculus with 12 samples.

Results

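B cells recognise antigen through a surface immunoglobulin that signals by way of Cd79a and Cd79b, and the 33 genes described here cover that receptor's signalling, the surface receptors and transcription factors of B cells, and genes of the follicle and the germinal centre. They were chosen by name as a module of B cell and germinal centre genes, and each of the 33 had a row among the 23329 rows of the count tables. Transcripts were measured by RNA sequencing in spleen and duodenum of wild type C57BL/6J mice, a common inbred strain, aged 2 months. The mice were given AC H6, an antibody that activates the lymphotoxin beta receptor (LTbR), or a control antibody of matched isotype, as 100 ul of a 1 mg/ml solution per mouse, and the treatment lasted 24 h. The groups were AC H6 spleen, isotype spleen, AC H6 duodenum and isotype duodenum, with 3 libraries in each. All 4 groups share strain and age. Whether each library of a group is a mouse of its own is not stated in the labels, and p-values therefore speak only of the spread among these libraries, which may be technical.

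LTbR is carried mainly by stromal, epithelial and myeloid cells and much less by lymphocytes, and its ligands are made by B cells, T cells and other lymphoid cells. Through the alternative NF-kB pathway it maintains the follicular stroma and the chemokine Cxcl13, which draws B cells into follicles. In a follicle that responds to antigen, B cells enter the germinal centre under the transcriptional repressor Bcl6, and S1pr2, a receptor for sphingosine 1-phosphate, keeps them there. The spleen is built around such follicles, while the duodenum holds its B cells in the lamina propria and in occasional lymphoid follicles. The comparison addressed here is whether the B cell transcripts of the 2 tissues differed after LTbR was engaged, gene by gene.

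Total counts per library ran from 13874091 to 45847467. The 33 genes together held 0.478% to 0.681% of the counts in AC H6 spleens and 0.692% to 0.846% in isotype spleens, and between 0.0209% and 0.0247% in the 6 duodenum libraries. The haemoglobin share was 28.3%, 15.7% and 22.5% in AC H6 spleens 1, 2 and 3, against 12.1%, 19.0% and 7.59% in isotype spleens 1, 2 and 3. The labels of tissue matched their markers: 6 genes of intestinal epithelium summed to 8181 to 11283 CPM in the duodenum libraries and to 21.3 to 26.6 CPM in the spleen libraries. Levels are CPM (read counts relative to the size of the library, after trimmed mean of M values scaling within a tissue), and a change is the log2 ratio of AC H6 over isotype ± its standard error. A gene was called at an adjusted p under 0.05 in the quasi-likelihood test of edgeR, adjusted over all genes tested by the method of Benjamini and Hochberg.

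Under isotype all 33 genes were lower in duodenum than in spleen, where the background of lower calls was 43.8% of the genes tested. This set the depth at which each could be read. The log2 difference of duodenum against spleen had a median of -5.56 over the 33 genes and -0.05 over all genes tested. It was largest for Faim3, the Fc receptor for IgM (-9.88 ± 0.16), followed by the complement receptor Cr2 (-9.58), the IgE receptor Fcer2a (-9.39), Ms4a1, which encodes the antigen CD20 (-9.16), the B lineage factor Pax5 (-9.15) and the kinase gene Blk (-9.01). Each differed from the next in this order by less than the sum of their standard errors, which lay between 0.11 and 0.22. In the duodenum these 6 genes rested on 2 to 40 counts per library. The smallest differences were those of S1pr2 (-1.05 ± 0.20), the exchange factor gene Ralgps2 (-1.15 ± 0.11), the adaptor gene Blnk (-1.27 ± 0.07) and Bcl6 (-1.84 ± 0.16). Restriction to B cells differs among the genes: Btk, Ly86, Tlr9, Cd40, Cd83 and Bcl6 are known to be expressed by myeloid or other immune cells too. This list is not complete, and a gene left out of it need not be restricted to B cells. In the isotype duodena Ralgps2, Blnk and Swap70 averaged 69.4, 40.0 and 29.0 CPM, against 3.46 CPM for Cd79a and 0.617 CPM for Ms4a1. The cell source of Ralgps2, Blnk and Swap70 there was not tested.

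**Figure D1:**
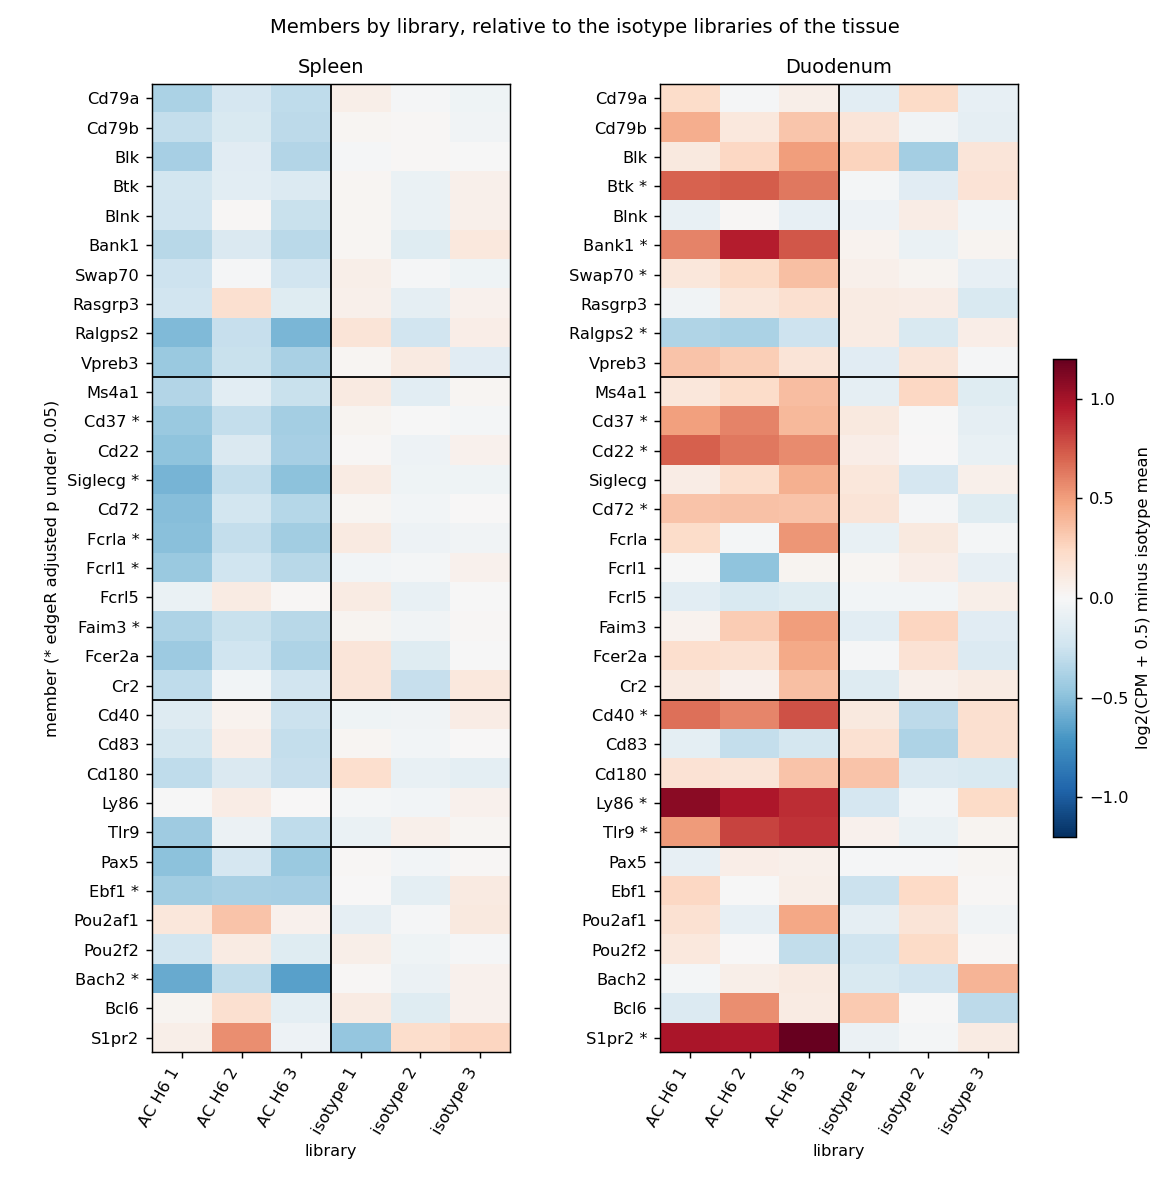
All 33 genes (rows, ordered by role) in the 6 spleen libraries (left) and the 6 duodenum libraries (right), as log2(CPM + 0.5) minus the mean of the isotype libraries of that tissue; stars mark genes called by edgeR. Spleen AC H6 libraries 1 and 3 are the darkest blue and library 2 is paler, while in the duodenum the deepest reds are S1pr2, Ly86, Bank1 and Tlr9.

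In the spleen, several genes of mature B cells were lower after AC H6. Of the 33 genes, all tested, 0 were called higher and 7 were called lower. The background among 15270 genes tested was 315 called higher and 293 (1.92%) called lower. The 7 were the tetraspanin Cd37, the transcription factors Ebf1 and Bach2, the IgM receptor Faim3, the inhibitory receptor Siglecg, and the Fc receptor-like genes Fcrla and Fcrl1. Altogether 28 of 33 changes lay below 0, 21 had an unadjusted p under 0.05, and the median was -0.27 beside -0.0009 over all genes tested. Over all 15270 genes tested, 7661 changes lay below 0 and 4260 had an unadjusted p under 0.05. For 20 of the 33 genes every AC H6 spleen lay below every isotype spleen, and for 0 the reverse held. How many of all genes separated in this way was not counted. In bulk tissue, fewer cells of a type and less RNA per cell cannot be told apart.

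The calls were unevenly supported. AC H6 spleen 2 had the highest level of the 3 AC H6 spleens for all 33 genes, with a median log2 difference from the isotype mean of -0.17, against -0.35 in AC H6 spleen 1 and -0.31 in AC H6 spleen 3. It was also the AC H6 spleen with the smallest haemoglobin share. Without it 17 of the 33 genes were called lower, beside 557 of all 15094 genes tested. Without AC H6 spleen 1 or 3, or without isotype spleen 1, 2 or 3, the count was 0 each time. Over all genes, 2 to 28 were then called lower, against 293 with every spleen library kept. With DESeq2 20 of the 33 genes were called lower, among them the 7 named, beside 1039 of all 14907 genes tested. With a red cell precursor score as a covariate 0 of the 33 were called, beside 73 called lower of all 15270. The median of the 33 genes stayed between -0.33 and -0.22 under all of these. The part of red cell RNA and of 1 library in the difference was not tested further.

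Among the surface receptors 5 of 11 fell in the spleen and 0 rose (median -0.35). Cd37, a tetraspanin of mature B cells (chromosome 7, 45233632 to 45239115, minus strand), had 328, 364 and 335 CPM in the AC H6 spleens, against 455, 443 and 438 CPM in the isotype spleens. The groups did not overlap, and the change was -0.38 ± 0.06 (adjusted p = 0.0251). Siglecg, a sialic acid-binding receptor that restrains signalling of the B cell receptor (chromosome 7, 43408204 to 43418358, plus strand), had 202, 243 and 211 CPM in the AC H6 spleens, against 318, 287 and 286 CPM in the isotype spleens. Its change was -0.44 ± 0.09 (adjusted p = 0.0403), again with no overlap.

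Faim3 (chromosome 1, 130865669 to 130880791, plus strand) had 251, 269 and 257 CPM in the AC H6 spleens, against 332, 315 and 326 CPM in the isotype spleens, a change of -0.32 ± 0.05 (adjusted p = 0.0299). Every AC H6 spleen was below every isotype spleen. Fcrla, an intracellular Fc receptor-like protein of B cells, had 99.0, 115 and 105 CPM in the AC H6 spleens, against 151, 134 and 136 CPM in the isotype spleens (change -0.40 ± 0.08, adjusted p = 0.0414). Fcrl1, its relative at the cell surface, had 116, 134 and 125 CPM in the AC H6 spleens, against 155, 156 and 165 CPM in the isotype spleens (change -0.34 ± 0.07, adjusted p = 0.0438). Both pairs of groups were separate, and in both genes AC H6 spleen 2 was the closest to isotype.

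The other surface receptors did not pass the test in the spleen. Cd22, a sialic acid-binding inhibitory receptor, had 411, 511 and 437 CPM in the AC H6 spleens, against 582, 551 and 595 CPM in the isotype spleens (change -0.35 ± 0.09, adjusted p = 0.0698). Cd72, another inhibitory receptor, had 141, 173 and 159 CPM in the AC H6 spleens, against 205, 198 and 202 CPM in the isotype spleens (change -0.35 ± 0.08, adjusted p = 0.0552). These groups were separate in both genes, yet the adjusted p lay just above the threshold. Fcer2a, known as CD23 on follicular B cells, had 247, 283 and 257 CPM in the AC H6 spleens, against 369.7, 302 and 333 CPM in the isotype spleens (adjusted p = 0.0693). Ms4a1 had 379.7, 444 and 403 CPM in the AC H6 spleens, against 521, 444 and 492 CPM in the isotype spleens (adjusted p = 0.119). For Fcer2a the groups were separate, and for Ms4a1 the highest AC H6 value was just under the lowest isotype value. Cr2, carried by B cells of the marginal zone and follicle and by follicular dendritic cells, had 297, 359 and 313 CPM in the AC H6 spleens, against 405, 303 and 400.3 CPM in the isotype spleens (change -0.19 ± 0.12, adjusted p = 0.338), and its groups overlapped because isotype spleen 2 was low. Fcrl5, a marker of marginal zone B cells, ran from 27.5 to 31.2 CPM under AC H6 and from 27.2 to 31.1 CPM under isotype.

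Of the 10 genes of antigen receptor signalling, 0 were called in the spleen by edgeR, although 7 had an unadjusted p under 0.05 and all 10 changes lay below 0 (median -0.27). Cd79a (chromosome 7, 24897381 to 24902197, plus strand) had 527, 597 and 555 CPM in the AC H6 spleens, against 717, 679.7 and 659 CPM in the isotype spleens, a change of -0.29 ± 0.07 (adjusted p = 0.0538). Cd79b, the other signalling chain, had 526, 565 and 517 CPM in the AC H6 spleens, against 654, 649.5 and 623 CPM in the isotype spleens (change -0.26 ± 0.06, adjusted p = 0.0511). Both were separate between the groups and just missed the threshold. Ralgps2, an exchange factor for Ral GTPases, had the lowest value of the 10, -0.45 ± 0.12, from 141, 169 and 139.7 CPM in the AC H6 spleens, against 227, 174 and 215 CPM in the isotype spleens (adjusted p = 0.0746). Vpreb3, a relative of the surrogate light chain, had 16.7, 19.0 and 17.5 CPM in the AC H6 spleens, against 23.4, 24.8 and 20.9 CPM in the isotype spleens (adjusted p = 0.0576). The tyrosine kinase gene Btk had 117, 125 and 121 CPM in the AC H6 spleens, against 138, 129 and 141 CPM in the isotype spleens, the scaffold gene Bank1 194, 217 and 196 CPM in the AC H6 spleens, against 248, 221 and 268 CPM in the isotype spleens. These 4 genes were separate between the groups without passing the test. Swap70, which encodes a Rac-binding protein of B cells, had 282, 332 and 286 CPM in the AC H6 spleens, against 351, 331 and 324 CPM in the isotype spleens, with overlap. The kinase Blk (-0.29), Blnk (-0.16) and the Ras activator Rasgrp3 (-0.05) were not called either.

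The transcription factors split. Ebf1, a pioneer factor of the B lineage (chromosome 11, 44617317 to 45008091, plus strand), had 32.8, 33.4 and 33.2 CPM in the AC H6 spleens, against 44.2, 40.5 and 47.5 CPM in the isotype spleens (change -0.41 ± 0.07, adjusted p = 0.0287). The AC H6 spleens lay within 1 CPM of each other and below all isotype spleens. Bach2, a repressor of plasma cell differentiation (chromosome 4, 32238804 to 32586108, plus strand), had 75.4, 93.5 and 72.7 CPM in the AC H6 spleens, against 116, 109 and 119 CPM in the isotype spleens (change -0.51 ± 0.10, adjusted p = 0.0421). This was the lowest change of the 33 genes in the spleen, and its groups were separate; 5.40% of its exon bases also belong to the antisense gene Bach2os. Pax5 averaged 56.6 ± 6.34 CPM under AC H6, against 73.5 ± 1.32 CPM under isotype (adjusted p = 0.0513). Pou2af1, the coactivator of octamer-binding factors, which plasma cells also express, had 388, 446 and 366 CPM in the AC H6 spleens, against 327, 349.6 and 382 CPM in the isotype spleens and the highest change of the 33 genes in the spleen, 0.18 ± 0.09 (adjusted p = 0.238). Bcl6 had 61.5, 68.5 and 55.5 CPM in the AC H6 spleens, against 64.3, 54.2 and 62.1 CPM in the isotype spleens (0.04 ± 0.10) and S1pr2 7.98, 11.3 and 7.22 CPM in the AC H6 spleens, against 5.35, 8.82 and 9.15 CPM in the isotype spleens (0.17 ± 0.23). In these 3 genes the groups overlapped. The octamer-binding factor gene Pou2f2 changed by -0.08 ± 0.09, without a call.

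The 5 activation receptors were also without a call in the spleen by edgeR (2 with an unadjusted p under 0.05, median -0.13). Cd40, the receptor through which T cells help B cells, had 41.8, 47.9 and 38.7 CPM in the AC H6 spleens, against 44.9, 45.1 and 49.3 CPM in the isotype spleens. Tlr9, the endosomal sensor of unmethylated DNA, had 65.6, 84.2 and 71.4 CPM in the AC H6 spleens, against 83.7, 92.4 and 89.8 CPM in the isotype spleens. Ly86, the secreted partner of the Toll-like receptor relative Cd180, had 104, 110.2 and 104 CPM in the AC H6 spleens, against 102, 101 and 108 CPM in the isotype spleens. The groups overlapped in all 3 genes, and those of Ly86 nearly coincided. The maturation marker Cd83 had 92.4, 112 and 87.4 CPM in the AC H6 spleens, against 108, 104 and 107 CPM in the isotype spleens, and Cd180 changed by -0.26 ± 0.10 (adjusted p = 0.144).

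In the duodenum several receptor and signalling genes of the module were higher after AC H6, while the genes with the strongest preference for spleen were read at few counts and were not called. Of 31 genes tested, 10 were called higher and 1 lower, against backgrounds of 18.5% called higher and 16.1% called lower among 15667 genes. The 10 were S1pr2, Ly86, Cd22, Bank1, Btk, Tlr9, Cd40, Cd37, Cd72 and Swap70, and the 1 was Ralgps2. Altogether 26 of 31 changes lay above 0 and the median was 0.38, beside 0.01 over all genes tested; without AC H6 duodenum 3 the median was 0.23. For 12 of the 33 genes every AC H6 duodenum lay above every isotype duodenum, and for 2, Ralgps2 and Fcrl5, every one lay below. How many of all genes separated so in the duodenum was not counted. Pax5, with 2 to 5 counts per library, and Fcrl5, with 1 to 4, did not pass the filter on low counts. The call of S1pr2, Ly86, Cd22, Bank1, Btk, Tlr9, Cd40 and Cd37 held under every alternative in which they were tested, while Swap70 was called in 10 of 14, Cd72 in 12 of 14 and Ralgps2 in 13 of 14.

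The largest change was that of S1pr2 (chromosome 9, 20962361 to 20976781, minus strand), which had 6.08, 6.03 and 7.36 CPM in the AC H6 duodena, against 2.68, 2.79 and 3.06 CPM in the isotype duodena. Every AC H6 duodenum lay well above the highest isotype duodenum, with means of 6.49 ± 0.753 CPM under AC H6, against 2.84 ± 0.20 CPM under isotype (SD, n = 3 each), and the change was 1.19 ± 0.13 (adjusted p = 0.000371). Bcl6, the repressor that defines the germinal centre, had 11, 18.5 and 13.3 CPM in the AC H6 duodena, against 15.5, 12.4 and 9.90 CPM in the isotype duodena in the same libraries, a change of 0.18 ± 0.21 (adjusted p = 0.529). Its groups overlapped widely, with the highest value in AC H6 duodenum 2 and the lowest in isotype duodenum 3. S1pr2 is also expressed outside the germinal centre, for instance by endothelial and myeloid cells.

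Of the 5 activation receptors 3 rose, beside 18.5% called higher over all genes tested in the duodenum. Ly86 (chromosome 13, 37345208 to 37419036, plus strand) had 12.5, 11.5 and 10.8 CPM in the AC H6 duodena, against 4.82, 5.48 and 6.70 CPM in the isotype duodena (change 1.02 ± 0.13, adjusted p = 0.00067). Tlr9 (chromosome 9, 106222598 to 106226883, plus strand) had 2.73, 3.47 and 3.63 CPM in the AC H6 duodena, against 1.84, 1.64 and 1.82 CPM in the isotype duodena (change 0.89 ± 0.16, adjusted p = 0.00383). Cd40 (chromosome 2, 165055627 to 165072948, plus strand) had 2.14, 2.02 and 2.34 CPM in the AC H6 duodena, against 1.32, 0.850 and 1.41 CPM in the isotype duodena (change 0.88 ± 0.21, adjusted p = 0.0123). All 3 were separate between the groups. Cd180, the partner that Ly86 binds, averaged 2.34 ± 0.204 CPM under AC H6, against 1.97 ± 0.535 CPM under isotype and was not called (0.28 ± 0.20, adjusted p = 0.309). Cd83 had 3.94, 3.44 and 3.66 CPM in the AC H6 duodena, against 4.96, 3.23 and 4.98 CPM in the isotype duodena, with overlap (change -0.24 ± 0.18, adjusted p = 0.325).

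Among the surface receptors 3 of 10 tested rose, beside 18.5% called higher over all genes tested in the duodenum. Cd22 (chromosome 7, 30865402 to 30880342, minus strand) had 4.77, 4.48 and 4.27 CPM in the AC H6 duodena, against 2.89, 2.73 and 2.53 CPM in the isotype duodena (change 0.73 ± 0.12, adjusted p = 0.00248); 9.50% of its exon bases also belong to an antisense gene. Cd37 had 3.27, 3.56 and 3.02 CPM in the AC H6 duodena, against 2.41, 2.17 and 1.99 CPM in the isotype duodena (change 0.59 ± 0.14, adjusted p = 0.0128). Cd72 (chromosome 4, 43446462 to 43454628, minus strand) had 11.2, 11.3 and 11.2 CPM in the AC H6 duodena, against 9.74, 8.62 and 7.85 CPM in the isotype duodena (change 0.37 ± 0.09, adjusted p = 0.0168). All 3 were separate between the groups. Of the exon bases of Cd72, 41.6% also belong to Tesk1 on the other strand, so reads of the 2 genes cannot be told apart there. Tesk1 itself changed by -0.04 ± 0.06 in the duodenum (adjusted p = 0.617).

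The other surface receptors tested were low in the duodenum and passed no test there. Ms4a1 had 28, 25 and 40 counts in AC H6 duodena, against 12, 28 and 15 counts in isotype duodena, or 0.722, 0.789 and 0.937 CPM in the AC H6 duodena, against 0.526, 0.821 and 0.505 CPM in the isotype duodena. Cr2 had 0.413, 0.379 and 0.586 CPM in the AC H6 duodena, against 0.263, 0.381 and 0.404 CPM in the isotype duodena, and Faim3 had 0.258, 0.410 and 0.539 CPM in the AC H6 duodena, against 0.175, 0.381 and 0.168 CPM in the isotype duodena. In these 3 genes the groups overlapped. Fcer2a had 0.490, 0.473 and 0.680 CPM in the AC H6 duodena, against 0.351, 0.469 and 0.269 CPM in the isotype duodena, separate by a narrow margin (change 0.58 ± 0.29, adjusted p = 0.157). Siglecg had 1.01, 1.14 and 1.41 CPM in the AC H6 duodena, against 1.05, 0.733 and 0.976 CPM in the isotype duodena and Fcrla 1.21, 0.946 and 1.62 CPM in the AC H6 duodena, against 0.877, 1.08 and 0.943 CPM in the isotype duodena. Fcrl1 had 0.722, 0.379 and 0.75 CPM in the AC H6 duodena, against 0.746, 0.792 and 0.640 CPM in the isotype duodena. The groups overlapped in the last 3 genes, with changes of 0.39 ± 0.22, 0.38 ± 0.24 and -0.21 ± 0.28.

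Of the 10 genes of antigen receptor signalling, 3 rose and 1 fell in the duodenum. Over all genes tested there, 18.5% were called higher and 16.1% lower, so these counts lay near the background. Bank1 (chromosome 3, 136053363 to 136326066, minus strand) had 3.56, 4.67 and 4.01 CPM in the AC H6 duodena, against 2.28, 2.05 and 2.26 CPM in the isotype duodena (change 0.89 ± 0.15, adjusted p = 0.00256). Btk (chromosome X, 134542336 to 134583570, minus strand) had 4.46, 4.54 and 4.22 CPM in the AC H6 duodena, against 2.5, 2.26 and 2.90 CPM in the isotype duodena (change 0.79 ± 0.13, adjusted p = 0.00279). Swap70 (chromosome 7, 110221711 to 110283506, plus strand) had 32.0, 34.1 and 37.4 CPM in the AC H6 duodena, against 30.2, 29.8 and 27.1 CPM in the isotype duodena (change 0.25 ± 0.07, adjusted p = 0.0247). These 3 were separate between the groups. Ralgps2 (chromosome 1, 156804166 to 156939626, minus strand) had 53.7, 53.1 and 57.9 CPM in the AC H6 duodena, against 74.2, 60.8 and 73.1 CPM in the isotype duodena (change -0.34 ± 0.08, adjusted p = 0.0145), all AC H6 duodena being the lower. The receptor chains themselves did not pass. Cd79a had 4.07, 3.41 and 3.63 CPM in the AC H6 duodena, against 3.11, 4.11 and 3.17 CPM in the isotype duodena, with overlap (change 0.09 ± 0.15, adjusted p = 0.668). Cd79b had 4.43, 3.50 and 4.10 CPM in the AC H6 duodena, against 3.55, 3.05 and 2.90 CPM in the isotype duodena, where AC H6 duodenum 2 fell just under isotype duodenum 1 (change 0.35 ± 0.14, adjusted p = 0.0837). Vpreb3 had 0.438, 0.410 and 0.328 CPM in the AC H6 duodena, against 0.175, 0.323 and 0.236 CPM in the isotype duodena, on 4 to 17 counts per library. Blk (0.68), Blnk (-0.06) and Rasgrp3 (0.10) were not called.

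In the group of 6 transcription factors and germinal centre genes tested in the duodenum, S1pr2 was the 1 gene called and the 1 gene with an unadjusted p under 0.05. Ebf1 had 1.70, 1.36 and 1.45 CPM in the AC H6 duodena, against 1.05, 1.70 and 1.38 CPM in the isotype duodena (change 0.11 ± 0.21), Bach2 2.01, 2.18 and 2.25 CPM in the AC H6 duodena, against 1.75, 1.67 and 2.90 CPM in the isotype duodena (change 0.02 ± 0.22). Pou2af1 had 10.6, 8.71 and 13.1 CPM in the AC H6 duodena, against 8.64, 10.4 and 9.06 CPM in the isotype duodena (change 0.21 ± 0.15). Groups overlapped in all 3 genes, and isotype duodenum 3 held the highest Bach2 value. Pou2f2 changed by -0.11 ± 0.24.

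**Figure D2:**
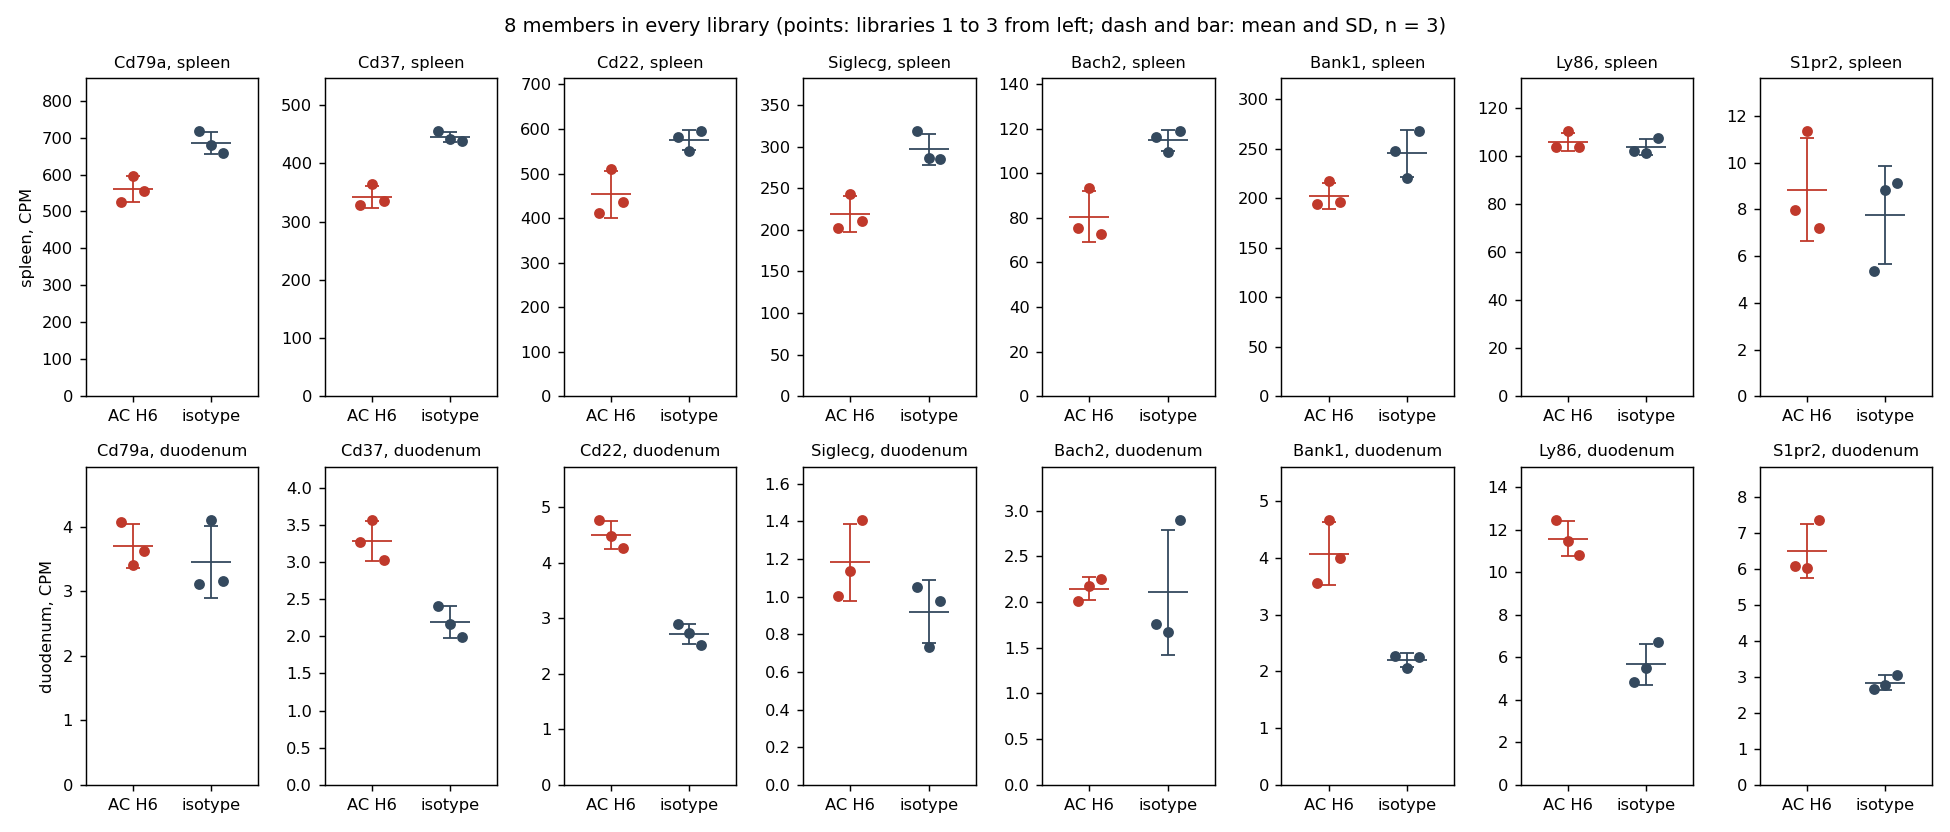
CPM of 8 genes in every library of spleen (upper row) and duodenum (lower row), each axis starting at 0; points are libraries, the dash and bar give the mean and SD (n = 3). In Cd37, Cd22 and Bank1 the AC H6 points lie below the isotype points in spleen and above them in duodenum, Ly86 and S1pr2 separate in duodenum alone, and Cd79a, Siglecg and Bach2 separate in spleen alone.

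Most of the genes lay below isotype in spleen and above it in duodenum after AC H6, although few were called in both tissues. Of the 31 genes tested in both, 22 lay below isotype in spleen and above it in duodenum. Another 5 lay below in both, 4 lay above in both, and 0 showed the reverse order. Over all genes tested, 7661 of 15270 changes lay below 0 in spleen and 8019 of 15667 lay above 0 in duodenum. The share of all genes with both signs was not counted. The 5 below in both were Blnk, Pou2f2, Cd83, Fcrl1 and Ralgps2, and the 4 above in both were Pou2af1, Bcl6, S1pr2 and Ly86. Cd37 was the 1 gene of the 31 called lower in spleen and higher in duodenum, and the share of all genes called so was not counted. The difference itself was the duodenum change minus the spleen change in a fit of all 12 libraries. It was called above 0 for 15 of 33 genes and below 0 for none. The background among 16655 genes was 1810 (10.9%) called above 0 and 1521 called below 0. The median difference was 0.59 over the 33 genes and -0.01 over all genes tested, and 30 of 33 values lay above 0. Of the 15 genes, 10 had been called in duodenum, 3 in spleen (Cd37, Siglecg and Fcrla, the first in both) and 3 in neither tissue.

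By role, the difference was called for 5 of 10 genes of antigen receptor signalling, 6 of 11 surface receptors, 3 of 5 activation receptors and 1 of 7 transcription factors and germinal centre genes. The largest were those of Bank1 (1.15 ± 0.15, adjusted p = 0.000311), Tlr9 (1.14 ± 0.17, adjusted p = 0.000987) and Cd22 (1.06 ± 0.12, adjusted p = 0.000182). In Bank1 and Cd22 the AC H6 libraries were the lower in spleen and the higher in duodenum, with no overlap in either tissue. For S1pr2 (1.00) and Ly86 (0.97) the difference came with a spleen change of 0.17 ± 0.23 and 0.03 ± 0.06, so the tissues differed without a lower value in spleen; the call for S1pr2 held in 8 of 18 alternatives. The 3 genes called in neither tissue were Cd79b, Fcer2a and Vpreb3. The call of the difference held in 18 of 18 alternatives for Cd79b, 15 for Fcer2a and 10 for Vpreb3. For Swap70 it held in 11 of 18. The difference was not called for Cd79a (0.36 ± 0.14, adjusted p = 0.0987), Ms4a1 (0.60 ± 0.22, adjusted p = 0.0815), Cr2 (0.56 ± 0.30, adjusted p = 0.276) or Bcl6 (0.12 ± 0.25, adjusted p = 0.789).

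**Figure D3:**
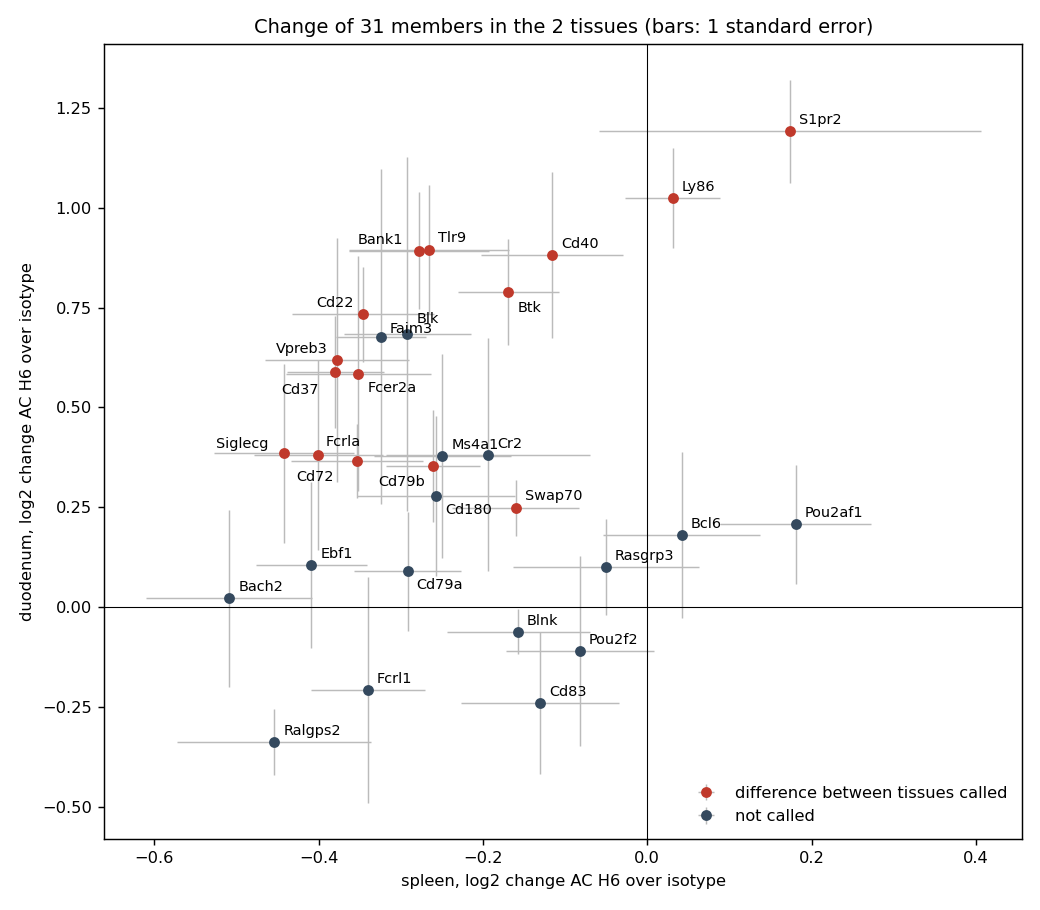
Log2 change of AC H6 over isotype in spleen (x axis) against duodenum (y axis) for the 31 genes tested in both tissues, with 1 standard error as bars; red points are genes whose difference between tissues was called. Of the 31 points, 22 lie in the upper left quadrant, below 0 in spleen and above 0 in duodenum, and the lower right quadrant is empty.

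Promoter sequence was read for the genes of the module. RefSeq windows on GRCm38.p6, from 250 bases before to 50 bases after a transcription start, were found for 28 of the 33 genes (36 windows; none for Cd79b, Blk, Ms4a1, Cd40 and Cd83). Letters of 4 motifs were searched on both strands, a search chosen after the values had been seen. The octamer ATGCAAAT, bound by Pou2f2 with Pou2af1, stood in 8.33% of these windows and in 1.74% of all 32851 windows, and the 3 genes with it were Blnk, Vpreb3 and Tlr9. The PU box letters GAGGAAG, a core bound by ETS family factors such as PU.1 and Spib, stood in 22.2% of these windows and 13.6% of all windows. The 8 genes with it were Btk, Rasgrp3, Cd37, Siglecg, Cd72, Fcrl1, Tlr9 and Bcl6. An EBF palindrome, TCCCNNGGGA, stood in 2.78% of these windows, that of Cd22, and in 0.904% of all, and the kappa B letters GGGNNTTTCC stood in 0 of 36 windows and in 1.63% of all. The motifs did not overlap one another in the sequences shown. A match describes letters and is no evidence of binding. Shown 5′ to 3′ on the gene's own strand are the windows of Cd37, the gene called in opposite directions, of Cd22, the receptor with the palindrome, and of Tlr9, which holds both the octamer and the PU box; capitals mark the motifs on either strand. They lie at chr7:45238790-45239089 (minus strand), chr7:30878979-30879278 (minus strand) and chr9:106222348-106222647 (plus strand).
Cd37: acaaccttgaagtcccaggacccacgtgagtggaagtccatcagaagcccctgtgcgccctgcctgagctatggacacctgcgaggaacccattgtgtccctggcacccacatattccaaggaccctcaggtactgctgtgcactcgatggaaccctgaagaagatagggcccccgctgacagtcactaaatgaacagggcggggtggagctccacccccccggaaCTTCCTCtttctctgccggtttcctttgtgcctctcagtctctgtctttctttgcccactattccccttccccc
Cd22: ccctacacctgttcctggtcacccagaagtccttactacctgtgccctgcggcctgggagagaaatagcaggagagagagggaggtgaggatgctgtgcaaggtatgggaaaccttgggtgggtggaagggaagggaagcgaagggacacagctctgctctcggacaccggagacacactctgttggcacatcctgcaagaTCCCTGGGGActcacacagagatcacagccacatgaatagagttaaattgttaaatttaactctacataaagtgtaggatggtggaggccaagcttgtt
Tlr9: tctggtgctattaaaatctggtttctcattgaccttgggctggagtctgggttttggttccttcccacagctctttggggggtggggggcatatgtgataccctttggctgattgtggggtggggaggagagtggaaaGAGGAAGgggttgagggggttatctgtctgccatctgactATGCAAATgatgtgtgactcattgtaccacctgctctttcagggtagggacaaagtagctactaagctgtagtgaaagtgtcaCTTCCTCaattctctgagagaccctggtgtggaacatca
In Cd37 the first base of the PU box lies 24 bases before the start, in Cd22 the palindrome 49 bases before it, and in Tlr9 the octamer 72 bases before it with PU boxes 112 bases before and 11 bases after it.

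Other genes of B cells and their surroundings were read from lists, described here without the 33 genes, and some genes stand in more than 1 list. Most genes named from a list were taken by the smallest p among its called genes, not by the size of the change. Over all genes tested, 18.5% were called higher and 16.1% lower in the duodenum, and 1.92% lower in the spleen. Of 20 partners of B cell receptor signalling, 0 rose and 1 fell in the spleen (median -0.12), while 13 rose and 1 fell in the duodenum (median 0.34). Among the rises in the duodenum were Rac2, a GTPase of blood cells (1.06 ± 0.04), the kinase gene Syk (0.78 ± 0.06), the lipid kinase gene Pik3cd (0.82 ± 0.09) and the signalling adaptor Bcl10 (0.41 ± 0.04). Rac2, Syk and Pik3cd are known in myeloid cells as well.

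Among 22 further genes of B cell identity, 0 rose and 4 fell in the spleen (median -0.23), among them the survival receptor Tnfrsf13c (-0.56 ± 0.10), Mef2c (-0.45 ± 0.08) and the class II modulator H2-Ob (-0.39 ± 0.07). In the duodenum 10 of these 22 rose and 1 fell (median 0.44). Spib, a factor of B cells and also of the M cells of follicle epithelium, changed by 3.52 ± 0.11, the invariant chain Cd74 by 0.89 ± 0.06, the row Sfpi1, which is the PU.1 gene, by 1.19 ± 0.11 and the class II transactivator Ciita by 0.94 ± 0.09. The fall was that of Cd69 (-0.66 ± 0.22). Class II genes and PU.1 also belong to macrophages and dendritic cells.

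The germinal centre programme had 0 genes called of 19 in the spleen by edgeR (7 with an unadjusted p under 0.05, median -0.07). In the duodenum 3 of 17 tested rose and 3 fell (median 0.12), a share of each close to the backgrounds. The methyltransferase gene Ezh2 (0.30 ± 0.07) and Lmo2 (0.36 ± 0.09) were higher and Cd38 (-0.49 ± 0.07) and Gna13, which couples to S1pr2 (-0.29 ± 0.07), were lower. Of 14 marginal zone genes, 3 fell and 0 rose in the spleen (median -0.04), namely Cd1d1 (-0.32 ± 0.06), S1pr3 (-0.33 ± 0.06) and the chemokine receptor Ccr7 (-0.36 ± 0.07). In the duodenum 8 of the 14 rose and 2 fell (median 0.40). Among the rises were Asb2 (0.82 ± 0.06), the tetraspanin Cd9 (0.86 ± 0.07) and S1pr3 (1.12 ± 0.10), and among the falls Plac8 (-0.56 ± 0.06). Plac8 averaged 1735 and 2557 CPM in AC H6 and isotype duodena, but 256 and 249 CPM in AC H6 and isotype spleens. The cell source of these changes was not tested. Of 13 plasma cell genes 1 fell in each tissue and 0 rose (medians -0.03 in spleen and -0.04 in duodenum). These were the survival receptor Tnfrsf13b in spleen (-0.34 ± 0.07) and Sdc1, known as CD138, in duodenum (-0.24 ± 0.07). Sdc1 averaged 98.2 and 116.3 CPM in AC H6 and isotype duodena, but 16.04 and 18.48 CPM in AC H6 and isotype spleens. The cell source of the lower Sdc1 level in duodenum was not tested.

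Signals that attract and sustain B cells changed as well, mainly in the duodenum. Of 13 homing and survival genes tested there, 8 rose and 2 fell (median 0.72). Cxcl13, the B cell chemokine, averaged 30.2 ± 4.56 CPM under AC H6, against 1.81 ± 0.399 CPM under isotype, a change of 4.03 ± 0.16 (adjusted p = 3.22e-06). The T cell zone chemokines Ccl19 (3.32 ± 0.24) and Ccl21a (1.21 ± 0.09) and the LTbR ligand gene Ltb (1.46 ± 0.15) rose too. Reads of Ccl21a can be shared with its near-identical copies. The B cell survival factor genes Tnfsf13b (-0.57 ± 0.11) and Tnfsf13 (-0.26 ± 0.05) fell, both named outside the rule of 4 genes per list. In the spleen 4 of 15 of these genes fell and 0 rose (median -0.12), Tnfrsf13c, Ccr7, S1pr1 (-0.27 ± 0.06) and Tnfrsf13b; Cxcl13 changed there by -0.12 ± 0.12 (adjusted p = 0.554). Of 12 genes of follicular dendritic cells, 11 rose in the duodenum (median 1.17), among them Mfge8 (2.98 ± 0.06), Cxcl13, Vcam1 (1.22 ± 0.06) and Enpp2 (1.42 ± 0.08), and 0 of 12 were called in the spleen by edgeR (4 with an unadjusted p under 0.05, median -0.02). The 2 members of that list left out here, Cr2 and Fcer2a, were called in neither tissue. The cell source of the 11 rises was not tested. Sox9, 1 of the 11, averaged 55.1 and 41.5 CPM in AC H6 and isotype duodena, but 0.485 and 1.06 CPM in AC H6 and isotype spleens.

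Markers of other cells were read beside these genes. Of all 15667 genes tested in the duodenum, 18.5% were called higher and 16.1% lower. In the duodenum all 5 general leukocyte markers rose (median 0.80), as did all 9 of macrophages and monocytes (median 0.90), 5 of 7 of dendritic cells (1 fell, median 0.95), 5 of 9 of neutrophils (1 fell, median 0.84), 3 of 11 of T cells (0 fell, median 0.24) and all 6 of follicle epithelium (median 1.80). The summed leukocyte markers were at 230.1 to 237 CPM in AC H6 duodena, against 128 to 134 CPM in isotype duodena. The summed macrophage and monocyte markers were at 465 to 512 CPM in AC H6 duodena, against 279 to 286 CPM in isotype duodena. Relative to the leukocyte markers, the 31 genes stood lower after AC H6. The mean log2 level of the 31 minus that of the 5 markers was -3.25, -3.30 and -3.24 in AC H6 duodena. In isotype duodena it was -2.82, -2.75 and -2.83. Mean log2 levels, here and for the spleen below, are of CPM + 0.5, an offset that dampens changes of genes at low CPM. The part of the offset in this gap was not tested. The T cell markers summed to 38.9 to 42.1 CPM in AC H6 duodena, against 31.9 to 34.7 CPM in isotype duodena. Relative to these T cell markers, the mean log2 level of the 31 genes was 0.245, 0.110 and 0.276 in AC H6 duodena. It was 0.318, 0.147 and 0.178 in isotype duodena, so the ranges overlapped. The part of these cells in the changes of the 31 genes was not tested. Of the intestinal epithelium markers 3 of 6 fell (median -0.25). Of 7 plasma cell markers 1 fell, again Sdc1 (median of the list -0.02). Of 8 red cell markers 1 rose and 1 fell (median -0.13), and 2 of 7 brain markers rose (median 0.22). The counts of T cell, red cell and brain markers called lay near the shares of all genes. Exocrine pancreas markers summed to 31.2, 517 and 5416 CPM in AC H6 duodena 1, 2 and 3, against 42.4, 1516 and 82.3 CPM in isotype duodena 1, 2 and 3, with 0 of 8 called by edgeR or at an unadjusted p under 0.05, and with a score of these genes as a covariate the duodenum count stayed at 10 higher and 1 lower.

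In the spleen 4 of 11 T cell markers fell and 0 rose (median -0.35), a median below that of the 33 genes. The T cell markers summed to 622 to 699 CPM in AC H6 spleens, against 776 to 904 CPM in isotype spleens, without overlap. The mean log2 level of the 33 genes minus that of the T cell markers was 1.12, 1.29 and 1.25 in AC H6 spleens. It was 1.24, 1.06 and 1.01 in isotype spleens, so the ranges overlapped. Minus that of the leukocyte markers it was -2.544, -2.418 and -2.506 in AC H6 spleens. The isotype spleens had -2.303, -2.392 and -2.420, so AC H6 spleen 2 lay just within their range. Over all 15270 genes tested in spleen, 315 were called higher and 293 lower. Neutrophil markers rose, 10 of 11 (median 1.44), with sums of 1845 to 2629 CPM in AC H6 spleens, against 621 to 955 CPM in isotype spleens. Of 9 macrophage and monocyte markers 5 rose (median 0.37), and of 7 dendritic cell markers 1 fell (Cd209a, -1.02 ± 0.14). Red cell precursor markers summed to 6727, 2508 and 4386 CPM in AC H6 spleens 1, 2 and 3, against 2171, 2887 and 658 CPM in isotype spleens 1, 2 and 3; 0 of 8 were called by edgeR (2 with an unadjusted p under 0.05, median 1.29). Of the remaining marker lists 0 genes were called in the spleen by edgeR, namely leukocytes in all (0 with an unadjusted p under 0.05, median -0.12), plasma cells (1, median -0.03), intestinal epithelium (1, median 0.15), follicle epithelium (3, median 0.12), exocrine pancreas (0, median -1.81) and brain (0, median 0.02). The part of neutrophil, red cell and T cell RNA in the lower values of the 33 genes was not tested beyond the red cell score above.

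**Figure D4:**
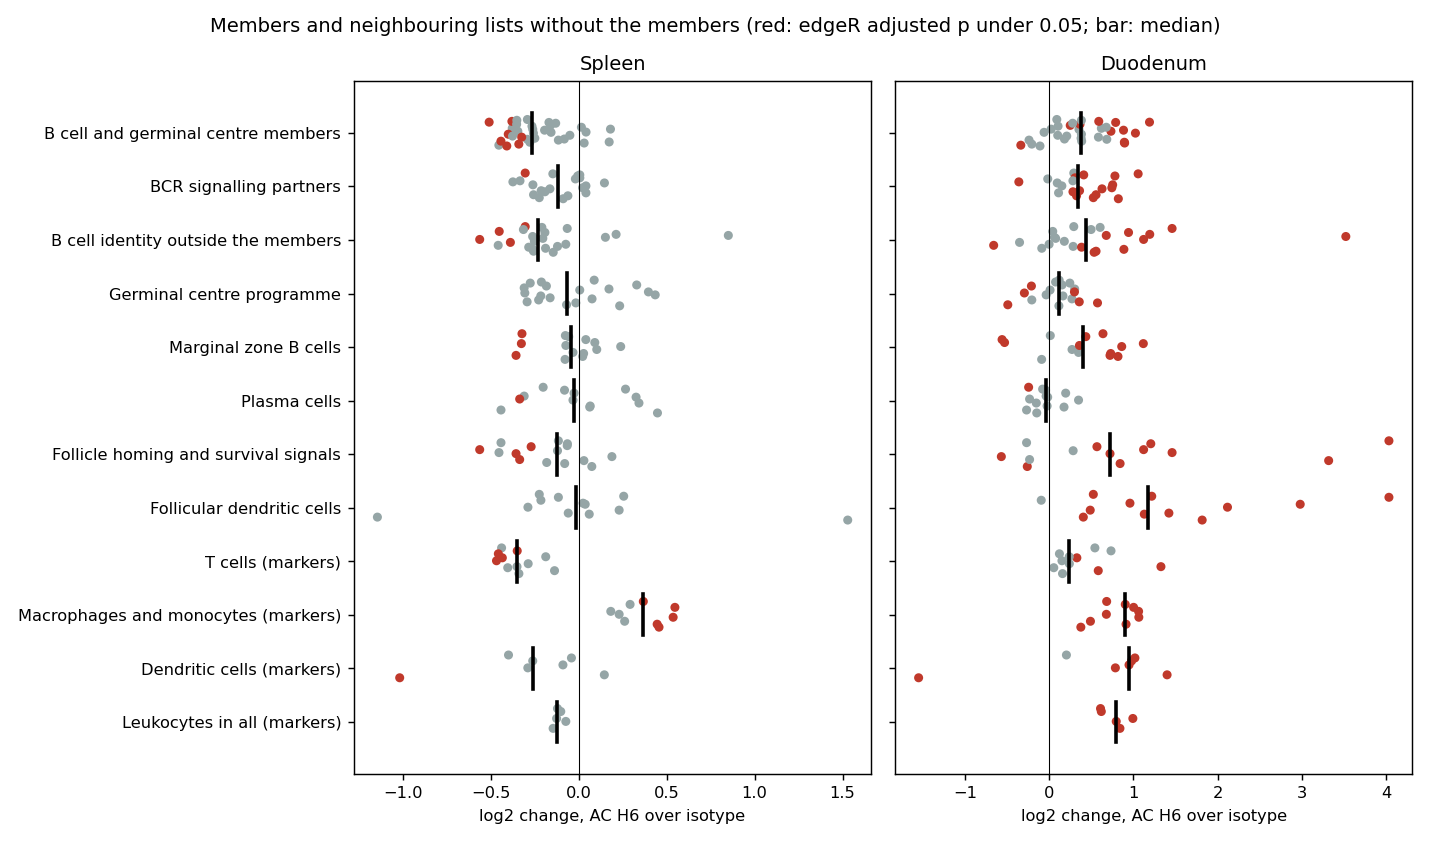
Log2 change of AC H6 over isotype for the 33 genes and for neighbouring lists without them, in spleen (left) and duodenum (right, with its own axis range); each point is a gene, red where edgeR called it, and the black bar is the list's median. Of the lists drawn, that of follicular dendritic cells has the highest median in duodenum, 1.17, and that of T cells has the lowest in spleen, -0.35.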

How the data were processed

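RNA was taken up in Trizol, cleaned on columns and made into libraries with an Illumina TruSeq RNA kit, per the labels' protocols. The kit does not keep strand. The protocol names brain as the source, whereas each sample is labelled spleen or duodenum. The submitters' processing notes list bcl2fastq 2.19, Trimmomatic, STAR 2.3, edgeR and the build mm10, without roles. The read counter and annotation were not given in the sources used here. Whole-number counts of reads per gene were deposited by the authors, 23329 rows for each of 12 libraries, and per the file headers reads with several matches are kept. No other row had counts within 1% of those of any of the 33 genes.

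From these counts edgeR 4.0.16 (R 4.3.3) gave TMM factors, CPM and the quasi-likelihood test after filterByExpr, on the 6 libraries of each tissue, on all 12 for tissue by treatment, and on the 6 isotype libraries for duodenum against spleen. The standard error is the log2 change divided by the square root of F. Log2 changes of genes with few counts depend on a prior count. Alternatives were DESeq2-style size factors, no or a stricter filter, DESeq2 1.42.0, the replicate number as a block, each library left out, 16 abundant transcripts left out, 1 fit of all libraries, and red cell or pancreas scores as covariates.

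The genes, roles and lists were chosen with earlier results of these data known. Library values are given for genes called in a fit, for the 3 highest and 3 lowest changes per tissue, and for Cd79a, Ms4a1, Cr2, Fcer2a, Bcl6 and S1pr2. From each list up to 4 called genes of smallest p are named. Spi1, Gcsam, Nuggc, Mzb1 and Adgre1 were found under older names, and Trac was not analysed here. Some called genes of the lists are counted but their values are not reported here. Gene positions come from GENCODE M21 (GRCm38). Between libraries of a group chi-square per degree of freedom ran from 24.6 to 243, so none repeated another. Deviations from the group mean correlated at 0.21, 0.38 and 0.12 between same-numbered isotype libraries of the 2 tissues. Between same-numbered AC H6 libraries of the 2 tissues they correlated at 0.14, 0.17 and -0.18. The labels do not state such pairs, and these correlations do not establish them. The 33 calls of duodenum against spleen under isotype were the same in number with the block.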

Additional observations from a re-analysis of the deposited data

Results flagged for a closer look

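The change under AC H6 differed between the tissues, by edgeR's test of that difference over all 16655 genes, for 15 of the 33 genes, each with the duodenum change above the spleen change. The log2 difference, duodenum minus spleen, was 1.15 for Bank1, 1.14 for Tlr9, 1.06 for Cd22, 1.00 for S1pr2 and 0.985 for Cd40. It was 0.973 for Ly86, 0.973 for Vpreb3, 0.948 for Cd37, 0.938 for Btk and 0.916 for Fcer2a. It was 0.81 for Siglecg, 0.765 for Fcrla, 0.697 for Cd72, 0.594 for Cd79b and 0.389 for Swap70. Adjusted p ran from 0.000178 for Btk to 0.043 for Vpreb3. The call held in all 18 alternatives for 9 of the 15, and for S1pr2, the least stable, in 8 of 18, with adjusted p from 0.00861 to 0.0827.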

How the results depend on the processing

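Changes in spleen were small and rest on 3 libraries a group, and many duodenum values rest on few counts. With the replicate block 0 of the 33 genes were called in spleen (1 of all genes, against 608), 11 in duodenum, 15 for the difference between tissues and 33 for duodenum against spleen. Same-numbered AC H6 and isotype libraries correlated at 0.26, -0.13 and -0.03 in spleen and 0.40, 0.24 and -0.20 in duodenum, not every library correlated best with its own number, and these numbers were not taken as pairs. Spleen calls among the 33 were 20 with DESeq2 (2303 of all genes) and 0 with the red cell score (208 of all genes), and 0 to 17 with a library left out (14 to 1132 of all genes); 1 fit of all libraries called 1390 genes. The duodenum median was 0.30 with the stricter filter, which left 19 genes, and 0.23 to 0.44 with a library left out. The median difference between tissues ran from 0.52 to 0.69 and that of duodenum against spleen from -5.77 to -5.49 with a library left out. List medians kept their sign with the other size factors.

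Values near 0, called in no fit, changed sign. With the red cell score Rasgrp3 was 0.10, Cd40 0.0092 and Pou2f2 0.00056 in spleen. With a library left out, the ranges in spleen were -0.054 to 0.29 for S1pr2, -0.033 to 0.064 for Fcrl5, -0.038 to 0.11 for Bcl6 and -0.19 to 0.033 for Rasgrp3. In duodenum they were -0.033 to 0.30 for Ebf1, -0.13 to 0.33 for Bach2, -0.25 to 0.075 for Pou2f2, -0.37 to 0.019 for Fcrl1 and -0.044 to 0.35 for Bcl6. For the difference between tissues they were -0.16 to 0.14 for Pou2af1, -0.21 to 0.13 for Pou2f2, -0.10 to 0.28 for Bcl6 and -0.040 to 0.34 for Fcrl1. The cause was not tested.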

Other observations

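The difference between the tissues was also called for neighbouring genes that are not among the 33. The background among 16655 genes was 1810 (10.9%) called above 0 and 1521 called below 0. Of the partners of B cell receptor signalling, 13 of 20 were called above 0 and 0 below. Of the further B cell identity genes 11 of 22 were above and 0 below. Of the homing and survival genes 8 of 15 were above and 2 below, and of the follicular dendritic cell genes 9 of 12 were above and 0 below. The marginal zone genes had 7 of 14 above and 2 below, and the germinal centre programme 2 of 19 above and 1 below. Of the plasma cell genes 0 of 13 were called by edgeR, 2 of them with an unadjusted p under 0.05. T cell markers had 8 of 11 above and general leukocyte markers 5 of 5, so the difference was not limited to B cell genes.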
